A study of Homo sapiens with 18 samples.

Results

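NKX2-1, FOXA1, FOXA2, FOXA3, GATA6, SOX2, SOX9, CEBPA and HNF4A encode transcription factors of lung and endoderm lineages. They were taken by name as 9 of the 19970 protein-coding genes annotated on chromosomes 1 to 22 and X. A CUT&Tag peak was assigned to a gene if it overlapped the gene span or the 20 kb to either side of it, called its window here, by 1 bp or more. All 9 windows held peaks, and all 9 genes were held by at least 2 of the 12 libraries, as the test of covered length required.

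The cells were A549, an established human lung adenocarcinoma line, and CUT&Tag uses an antibody bound to chromatin to place a transposase that inserts sequencing adapters beside it. An antibody against ARID1A, which belongs to the SWI/SNF remodellers of chromatin, and an antibody against YTHDF1, a reader of N6-methyladenosine in RNA, were each used in YTHDF1-knockout cells (YTHDF1-KO), in cells given siRNA against ARID1A (siARID1A) and in wild-type cells (WT). Each of these 6 groups had 2 libraries, which makes 12 of the 18 samples of the series, and the 6 samples made with normal IgG were not analysed here. The labels do not say whether the knockout is a single clone, whether the WT cells received a control siRNA, or whether the 2 replicates of a group came from separate cultures. The p-values therefore measure the spread between libraries, which may be technical only.

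FOXA proteins and GATA6 are known as pioneer factors that open chromatin in the embryonic endoderm. NKX2-1 marks the part of the foregut that forms the lung, SOX2 the proximal airway and SOX9 the distal buds, while CEBPA acts in the maturing alveolar epithelium and HNF4A in liver and gut. SWI/SNF complexes slide and evict nucleosomes at enhancers and promoters, and ARID1A is often mutated in carcinomas.

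The anti-ARID1A lists held 71271 to 106882 peaks on these chromosomes, and the anti-YTHDF1 lists 40562 to 59632. Peaks covered 99.0 to 266 Mb with anti-ARID1A and 49.3 to 89.6 Mb with anti-YTHDF1. Sequencing depth is unknown. The window of CDKN2A, a gene known to be deleted in A549, held no peak in any of the 12 lists. Among 5 epithelial markers 4 were held in all 12, as were 2 of 4 blood markers and 1 of 3 neuronal markers, against 4 of the 9 members and 51.7% of all genes, so a peak in a window did not mark a lineage. The windows of YTHDF1 and ARID1A themselves were held in all 12 lists, and a peak at a gene does not test whether its protein was lost.

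The starts over which the antibodies differed in at least 3 libraries are shown by their promoter sequences, from RefSeq on GRCh38.p14. Each runs 5′ to 3′ on the strand of the gene, from 250 bases before the start to the 50th base of the transcript. Capitals mark matches, on either strand, to the GC box GGGCGG, the CCAAT box CCAAT, the TATA box TATAAA, the forkhead motif TGTTTAC, the AP-1 motif TGANTCA, the GATA motif AGATAA or the m6A core GGACT. Of 34961 such promoters, 45.0% hold the GC box, 34.6% the CCAAT box, 11.5% the TATA box, 3.42% the forkhead motif, 7.68% the AP-1 motif, 10.3% the GATA motif and 44.1% the m6A core. The internal HNF4A start lies at chr20:44400989-44401288 (+), and the first HNF4A start at chr20:44355449-44355748 (+). The others are SOX2 at chr3:181711675-181711974 (+), FOXA1 at chr14:37595200-37595499 (-) and the upper-coordinate start of NKX2-1 at chr14:36520183-36520482 (-).
HNF4A internal start: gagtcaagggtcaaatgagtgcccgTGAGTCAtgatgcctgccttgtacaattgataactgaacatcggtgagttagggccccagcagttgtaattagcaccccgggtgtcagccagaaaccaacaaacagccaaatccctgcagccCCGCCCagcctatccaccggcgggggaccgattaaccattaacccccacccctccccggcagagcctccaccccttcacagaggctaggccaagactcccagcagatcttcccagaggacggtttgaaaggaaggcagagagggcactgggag
HNF4A first start: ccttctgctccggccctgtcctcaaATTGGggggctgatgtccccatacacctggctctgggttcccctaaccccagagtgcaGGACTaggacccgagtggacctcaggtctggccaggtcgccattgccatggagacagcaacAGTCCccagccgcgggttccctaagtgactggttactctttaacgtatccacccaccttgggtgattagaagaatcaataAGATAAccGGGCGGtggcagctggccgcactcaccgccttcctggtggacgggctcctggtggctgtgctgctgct
SOX2: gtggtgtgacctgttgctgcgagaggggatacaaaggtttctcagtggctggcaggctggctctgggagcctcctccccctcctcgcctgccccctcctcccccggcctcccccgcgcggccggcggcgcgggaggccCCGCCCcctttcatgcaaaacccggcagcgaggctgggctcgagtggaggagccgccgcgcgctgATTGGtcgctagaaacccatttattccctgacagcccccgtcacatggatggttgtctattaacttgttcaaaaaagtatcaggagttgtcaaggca
FOXA1: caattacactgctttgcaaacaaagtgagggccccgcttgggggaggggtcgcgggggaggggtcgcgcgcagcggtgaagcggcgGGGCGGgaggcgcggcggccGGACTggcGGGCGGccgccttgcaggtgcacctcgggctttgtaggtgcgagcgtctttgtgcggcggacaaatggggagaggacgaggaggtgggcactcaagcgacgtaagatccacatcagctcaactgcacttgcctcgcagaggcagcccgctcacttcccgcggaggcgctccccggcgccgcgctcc
NKX2-1 upper start: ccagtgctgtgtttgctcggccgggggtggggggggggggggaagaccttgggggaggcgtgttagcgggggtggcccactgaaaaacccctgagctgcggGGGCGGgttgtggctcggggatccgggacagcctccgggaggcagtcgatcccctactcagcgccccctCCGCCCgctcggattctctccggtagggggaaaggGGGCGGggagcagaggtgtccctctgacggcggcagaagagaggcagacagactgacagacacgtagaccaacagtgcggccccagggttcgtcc
The internal HNF4A promoter held an AP-1 match and a GC box. The first HNF4A promoter held a CCAAT box, a GATA match, a GC box and 2 m6A cores. SOX2 held a GC box and a CCAAT box, FOXA1 2 GC boxes and an m6A core, and the NKX2-1 upper start 3 GC boxes. The m6A cores lay at -167 and -106 bases from the first HNF4A start and at -144 from that of FOXA1. They are thus matches in DNA outside the transcripts from these starts. No match in a promoter says only that these letters are missing from that window.

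Over its printed bases, the internal HNF4A promoter lay under a peak in 6 of 6 anti-ARID1A libraries and in 0 of 6 anti-YTHDF1 libraries. Within 1 kb to either side of this start the counts were 6 and 4. The 4 anti-YTHDF1 libraries were 2 of siARID1A and 2 of WT cells, with 0 of YTHDF1-KO cells. The contrast of 6 against 0 is thus limited to the printed bases. The anti-ARID1A peak over the promoter was 4264 and 11539 bp wide in YTHDF1-KO cells, 960 and 3430 bp in siARID1A cells and 11945 and 7201 bp in WT cells. Its total signal, a value the authors gave each peak, stood at the 90.8 and 97.6 percentile of the list in YTHDF1-KO cells, at 38.5 and 84.8 in siARID1A cells and at 97.9 and 96.8 in WT cells. The siARID1A peaks were thus the narrowest and the lowest in rank. Peaks of the siARID1A lists were also narrower as a whole, with median widths of 1104 and 1243 bp. The medians were 1701 and 1754 bp in WT cells and 1650 and 1523 bp in YTHDF1-KO cells. How many of all starts show this order was not counted. A count of 6 against 0 occurred at 813 of 34961 starts, or 2.33%. By Fisher's exact test, two-sided and chosen after the data were seen, p was 0.00216 and the adjusted p 0.0931, and 0 starts passed after adjustment while 2982 had an unadjusted p under 0.05. With 6 libraries against 6 this p is the smallest that the test can give.

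The other promoters of the members differed less between the antibodies. SOX2 was held by 4 anti-ARID1A and 0 anti-YTHDF1 libraries (Fisher's exact test, adjusted p = 0.392). FOXA1 and the upper start of NKX2-1 were each held by 4 anti-ARID1A libraries and 1 anti-YTHDF1 library, and the first HNF4A start by 5 and 2 (Fisher's exact test, adjusted p = 0.819 for each). The promoter of FOXA3 was held by 6 and 6 libraries, that of CEBPA by 6 and 5, that of GATA6 by 5 and 4, and the lower start of NKX2-1 by 3 and 3. FOXA2 and SOX9 were described by gene span alone.

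**Figure D1:**
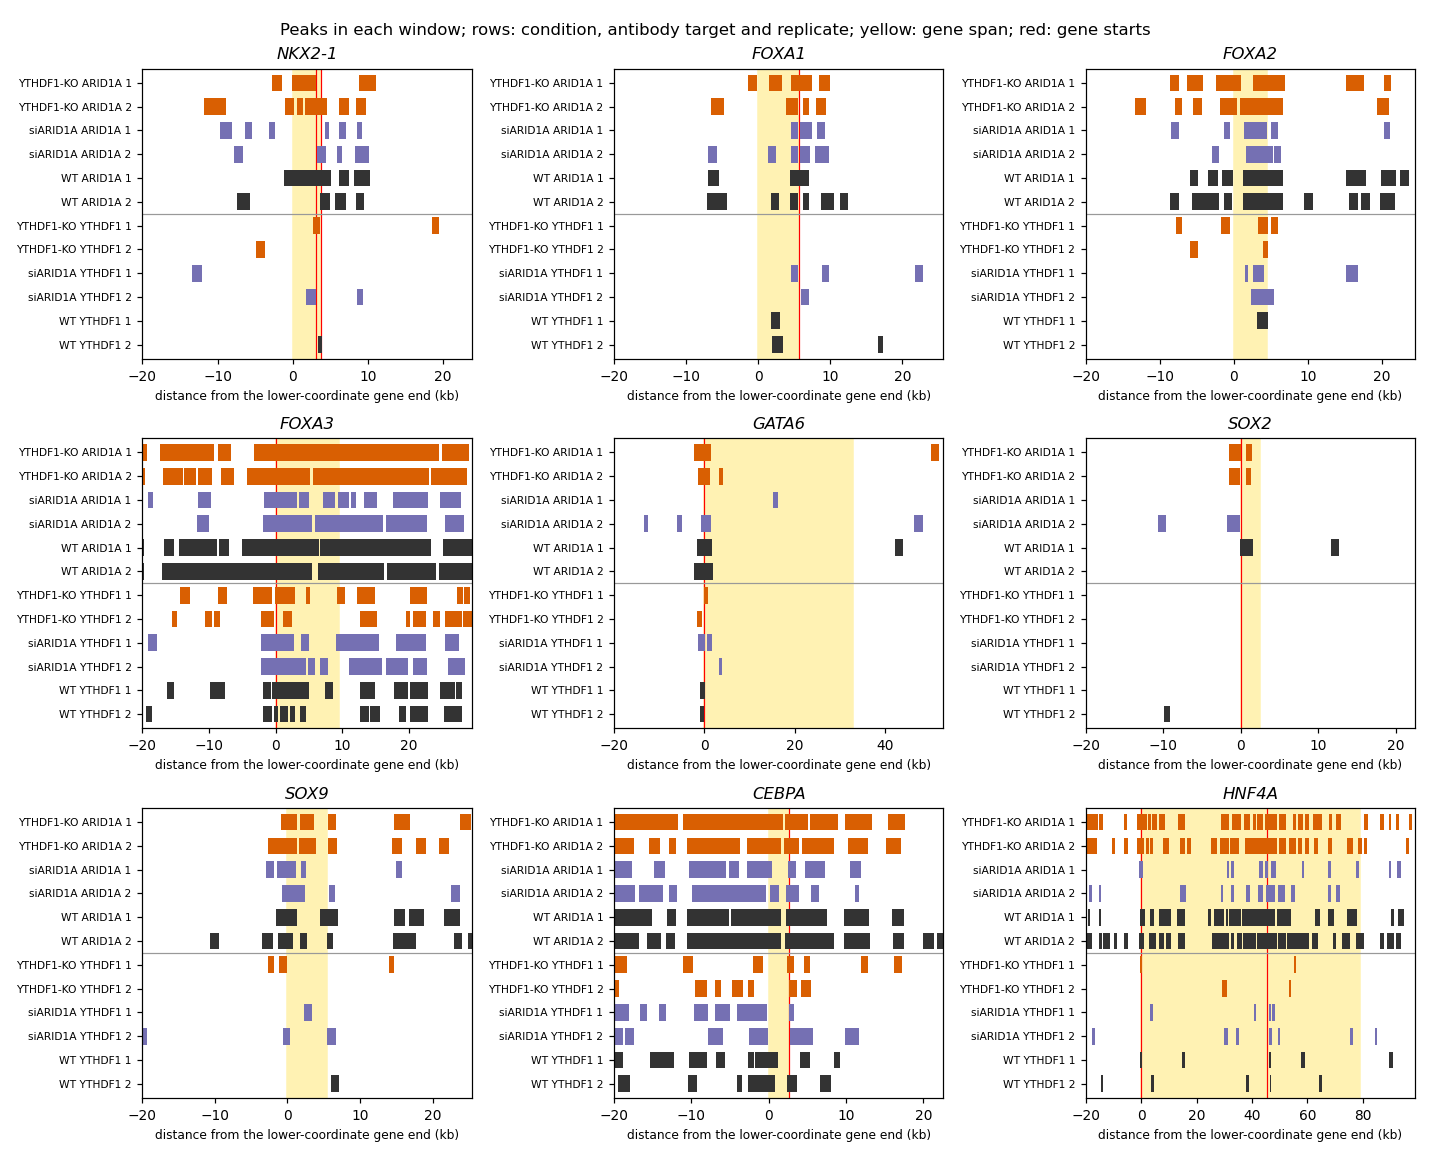
Peaks in the window of each gene, 1 row per library, with distance in kb from the lower-coordinate end of the gene on the horizontal axis, the gene span shaded yellow and annotated starts as red lines. Anti-ARID1A libraries fill the upper 6 rows and anti-YTHDF1 libraries the lower 6, and the peak runs over HNF4A, CEBPA and FOXA3 are longer in the upper rows.

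Among the factors of the lung field, NKX2-1 spans chr14:36516397-36520232, and its window also overlaps the lncRNA genes SFTA3, NKX2-1-AS1 and LOC105370453 and the pseudogene PHKBP2. With anti-ARID1A, 6.69 and 10.3 kb of the NKX2-1 window lay under peaks in YTHDF1-KO cells, 5.41 and 4.92 kb in siARID1A cells and 9.80 and 5.62 kb in WT cells. With anti-YTHDF1 the lengths were 1.96 and 1.20 kb in YTHDF1-KO cells, 1.32 and 2.18 kb in siARID1A cells and 0 and 0.611 kb in WT cells. Every anti-ARID1A library was above every anti-YTHDF1 library at NKX2-1. The single stretch under peaks of all 6 anti-ARID1A lists, chr14:36525290-36525674, lay outside the gene, 5058 bp beyond its upper-coordinate end.

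SOX9, which drives progenitors of the distal lung tips, spans chr17:72121020-72126416, and SOX9-AS1 is the other annotated gene of its window. With anti-ARID1A, 8.99 and 11.4 kb of the SOX9 window were covered in YTHDF1-KO cells, 5.22 and 5.29 kb in siARID1A cells and 11.1 and 11.3 kb in WT cells. With anti-YTHDF1, SOX9 had 2.76 and 0 kb in YTHDF1-KO cells, 1.03 and 2.86 kb in siARID1A cells and 0 and 1.21 kb in WT cells. All 6 anti-ARID1A lists shared chr17:72120257-72121777, which straddles the lower-coordinate end of the gene, and their strongest SOX9 peak reached its highest signal between -284 and 207 bp from that end. That peak ranked between the 83.6 and 93.9 percentile of the anti-ARID1A lists by total signal, while the strongest anti-YTHDF1 peak of SOX9 ranked between 8.50 and 39.3 in the 4 lists that held any.

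SOX2, a factor of the proximal airway and of pluripotent cells, spans chr3:181711925-181714436 inside the lncRNA gene SOX2-OT. It had the lowest mean share of its window under peaks of the 9 with either antibody. With anti-ARID1A the SOX2 window had 2.31 and 2.14 kb under peaks in YTHDF1-KO cells, 0 and 2.63 kb in siARID1A cells and 2.81 and 0 kb in WT cells. With anti-YTHDF1 it had 0 kb in 5 libraries and 0.794 kb in a WT library. No base of the window lay under peaks of more than 3 anti-ARID1A libraries.

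The 3 FOXA genes differed in how much of their windows the peaks covered. FOXA1 spans chr14:37589552-37595249, and its window also overlaps the protein-coding gene TTC6 (chr14:37595629-37842717), so its peaks cannot be assigned to FOXA1 alone. With anti-ARID1A the FOXA1 window had 7.34 and 5.51 kb under peaks in YTHDF1-KO cells, 3.56 and 6.63 kb in siARID1A cells and 4.14 and 8.71 kb in WT cells. With anti-YTHDF1 it had 0 and 0 kb in YTHDF1-KO cells, 3.19 and 1.18 kb in siARID1A cells and 1.20 and 2.22 kb in WT cells. The anti-ARID1A groups of FOXA1 overlapped one another, and the stretches shared by all 6 of those lists, chr14:37594107-37595008 and chr14:37595768-37596531, lay to either side of its start. In between, the printed FOXA1 promoter was held by 4 of the 6. The stretch chr14:37595768-37596531 lies inside TTC6.

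FOXA2, which cooperates with NKX2-1 in surfactant gene expression, spans chr20:22580998-22585490, between the lncRNA genes LINC00261 and LNCNEF. With anti-ARID1A, FOXA2 had 14.4 and 13.2 kb under peaks in YTHDF1-KO cells, 6.66 and 5.49 kb in siARID1A cells and 15.1 and 17 kb in WT cells. With anti-YTHDF1 it had 4.17 and 1.70 kb in YTHDF1-KO cells, 3.43 and 3.03 kb in siARID1A cells and 1.56 and 0 kb in WT cells. The strongest anti-ARID1A peak of FOXA2 ranked between the 95.2 and 97.6 percentile in all 6 lists, siARID1A lists included. Its highest signal lay 3679 to 3936 bp from the lower-coordinate end in all 6, inside chr20:22583536-22585502, the longest of 3 stretches shared by the 6 lists; the others, chr20:22586062-22586269 and chr20:22586419-22586898, lay beyond the upper-coordinate end. An overlapping stretch of 96 bp, chr20:22584916-22585011, lay under peaks of 5 anti-YTHDF1 lists.

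FOXA3, better known from liver, spans chr19:45864326-45873797, and its window also overlaps SYMPK, IRF2BP1 and MYPOP, so its peaks cannot be assigned to FOXA3 alone. With anti-ARID1A, 42.4 and 41.7 kb of the FOXA3 window were covered in YTHDF1-KO cells, 23.9 and 28.6 kb in siARID1A cells and 41.5 and 45.1 kb in WT cells. With anti-YTHDF1 the FOXA3 window had 17.5 and 15.9 kb in YTHDF1-KO cells, 20.4 and 21.8 kb in siARID1A cells and 21.6 and 15.0 kb in WT cells. The window was among the most covered of all genes with either antibody. In 4 of 6 anti-ARID1A lists the strongest FOXA3 peak had its highest signal 22234 or 22441 bp from the lower-coordinate end, beyond the gene and near IRF2BP1.

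GATA6, a zinc finger factor of lung and gut epithelium, spans chr18:22169589-22202528, and its window also overlaps GATA6-AS1, LOC105372017 and the pseudogene RNU6-702P. With anti-ARID1A, GATA6 had 5.64 and 3.46 kb under peaks in YTHDF1-KO cells, 1.02 and 5.77 kb in siARID1A cells and 5.24 and 4.31 kb in WT cells. With anti-YTHDF1 it had 0.899 and 0.971 kb in YTHDF1-KO cells, 2.95 and 0.669 kb in siARID1A cells and 1.13 and 0.895 kb in WT cells. The antibodies overlapped at GATA6, since 1 anti-ARID1A library of siARID1A cells lay among the anti-YTHDF1 values. Peaks recurred at or near the start: 5 of 6 anti-ARID1A lists shared chr18:22168837-22170823, and 4 of 6 anti-YTHDF1 lists shared chr18:22168697-22168967.

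CEBPA, a basic leucine zipper factor of alveolar and myeloid maturation, spans chr19:33299934-33302534 beside CEBPA-DT. With anti-ARID1A its window had 33.4 and 27.0 kb under peaks in YTHDF1-KO cells, 18.2 and 21.0 kb in siARID1A cells and 28.0 and 31.7 kb in WT cells. With anti-YTHDF1, CEBPA had 7.99 and 7.61 kb in YTHDF1-KO cells, 12.1 and 11.5 kb in siARID1A cells and 13.7 and 9.54 kb in WT cells. The widest anti-ARID1A peak at CEBPA was 29.3 and 18.8 kb in YTHDF1-KO cells, 4.81 and 9.53 kb in siARID1A cells and 18.1 and 24.2 kb in WT cells. In YTHDF1-KO and WT cells these wide peaks reached out of the window, and their highest signal lay outside it.

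HNF4A, a nuclear receptor that controls hepatocyte and gut genes, spans chr20:44355699-44434596, and its window of 119 kb is the longest of the 9. The window also overlaps the protein-coding gene R3HDML, the lncRNA genes R3HDML-AS1, HNF4A-AS1, LINC01430 and LINC01620 and the miRNA gene MIR3646. Anti-ARID1A lists had 26 and 23 HNF4A peaks in YTHDF1-KO cells, 11 and 12 in siARID1A cells and 18 and 24 in WT cells. Anti-YTHDF1 lists had 2 and 2 in YTHDF1-KO cells, 4 and 7 in siARID1A cells and 5 and 5 in WT cells. By length, anti-ARID1A peaks covered 53.5 and 53.8 kb in YTHDF1-KO cells, 12.5 and 18.9 kb in siARID1A cells and 49.6 and 65.2 kb in WT cells. Anti-YTHDF1 peaks covered 1.44 and 2.79 kb in YTHDF1-KO cells, 3.39 and 7.07 kb in siARID1A cells and 5.90 and 4.6 kb in WT cells. The siARID1A libraries were thus the lowest of the anti-ARID1A libraries, and still above every anti-YTHDF1 library. All 6 anti-ARID1A lists shared 4 stretches, all inside the gene: chr20:44388435-44389040, chr20:44398272-44399515, chr20:44400608-44401514, which covers the internal promoter, and chr20:44402506-44404037. No HNF4A base was shared by more than 4 anti-YTHDF1 lists.

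**Figure D2:**
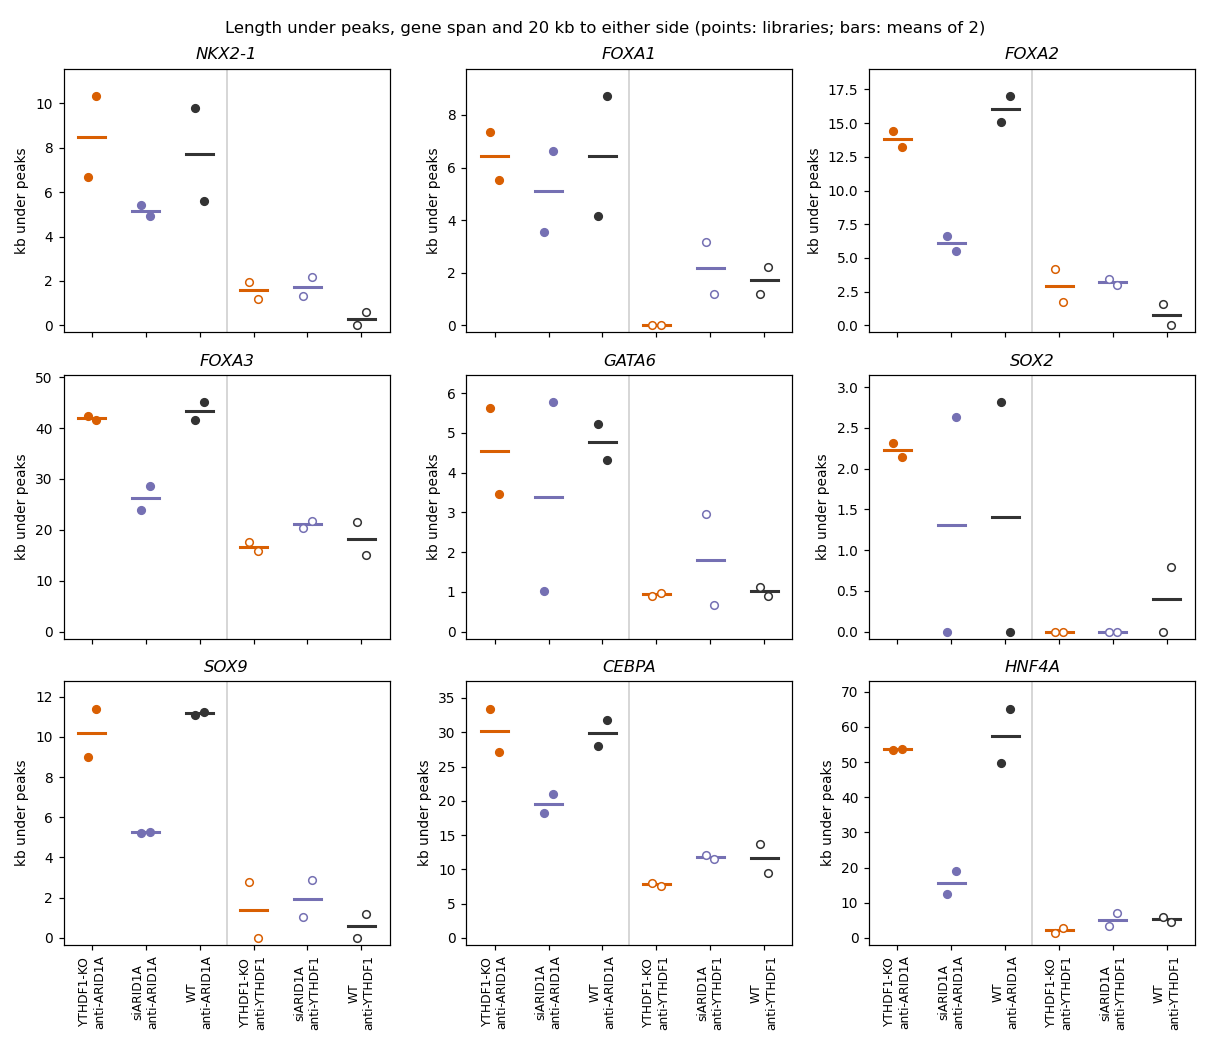
Length under peaks in kb (vertical axis, from 0) for each gene window, by condition and antibody; filled points are anti-ARID1A libraries, open points anti-YTHDF1 libraries and bars the mean of 2. HNF4A shows the widest gap between antibodies, with 12.5 to 65.2 kb for anti-ARID1A and 1.44 to 7.07 kb for anti-YTHDF1.

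In the 9 windows together there were 339 anti-ARID1A and 163 anti-YTHDF1 peaks. Their median width was 1712 bp with anti-ARID1A and 1183 bp with anti-YTHDF1, against 1515 and 1124 bp over the whole lists of the same antibodies. Peaks of 10 kb or more numbered 15 with anti-ARID1A, or 4.42% against 1.51% of the whole lists, and 0 with anti-YTHDF1, against 0.104%. Of the 15, 7 lay at FOXA3, 6 at CEBPA and 2 at HNF4A, and the same place can count once in each of the 6 lists. The whole lists also hold peaks away from gene windows, and a wide peak reaches a window more easily. The widths of member peaks and whole lists are therefore not a matched comparison. Over a gene span itself lay 45.7% of the 339 anti-ARID1A peaks and 38.0% of the 163 anti-YTHDF1 peaks, against 50.03% and 45.02% over the windows of all genes. A base under peaks of all 6 lists was found in 7 of 9 windows with anti-ARID1A, the exceptions being GATA6 and SOX2, against 70.1% of all genes. With anti-YTHDF1 such a base was found in the windows of FOXA3 and CEBPA, 2 of 9, against 26.5% of all genes. Both shares lay near those of all genes.

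The rank of each window by the share of its length under peaks, among all genes of the same library, sets the members side by side per length. FOXA3 had a median rank at the 96.2 percentile with anti-ARID1A and 94.6 with anti-YTHDF1, and CEBPA at 91.4 and 88.2. HNF4A came next with anti-ARID1A, at 78.0, against 54.1 with anti-YTHDF1, and its lowest anti-ARID1A rank, 68.0, was above its highest anti-YTHDF1 rank, 64.0. How many of all genes show such a gap in rank was not counted. FOXA2 had 71.1 and 62.6, SOX9 65.2 and 50.5, NKX2-1 63.9 and 52.3, and FOXA1 56.4 and 45.8. For each of these 4 genes the ranges of the antibodies overlapped. GATA6 had 37.3 and 39.7, and SOX2 was last with 33.6 and 12.5.

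**Figure D3:**
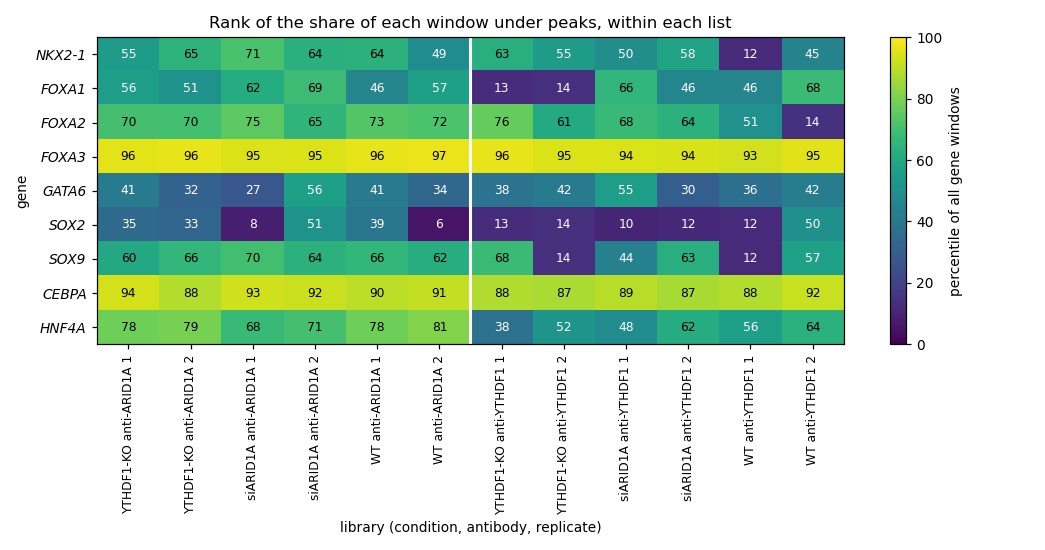
Percentile of each gene window among all protein-coding windows of the same library, by share of its length under peaks; columns are libraries, anti-ARID1A left of the white line and anti-YTHDF1 right of it. FOXA3 and CEBPA stay high in every column, and SOX2 lies at 50.9 or lower.

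Set against anti-YTHDF1, anti-ARID1A peaks covered more of every member's window, although the sign turned for FOXA3, GATA6, SOX2 and CEBPA once each library was centred on its median. The test was limma on log2(covered bases + 500) over all 18790 genes held by at least 2 libraries, with Benjamini-Hochberg adjustment and a threshold of 0.05. Each antibody was averaged over the 3 conditions, including anti-YTHDF1 in YTHDF1-KO cells and anti-ARID1A in siARID1A cells. Anti-YTHDF1 lists held 50774 and 46225 peaks in YTHDF1-KO cells, against 57764 and 40562 in WT cells. How far anti-YTHDF1 peaks mark YTHDF1 itself was not tested. HNF4A was higher by 3.10 ± 0.25 on the log2 scale (SE; 95% interval 2.56 to 3.64; limma, adjusted p = 3.00e-06). SOX9 was higher by 2.69, FOXA2 by 2.33, NKX2-1 by 2.29 and FOXA1 by 2.16, with limma adjusted p of 0.000125 to 0.000337. GATA6 was higher by 1.40, CEBPA by 1.31 and FOXA3 by 0.95 (limma, adjusted p = 0.0100, 5.45e-05 and 0.000137). SOX2 was higher by 1.48, with a limma adjusted p of 0.0242. Its window was held by 4 anti-ARID1A libraries and 1 anti-YTHDF1 library. SOX2 thus met the filter of 2 libraries only through anti-ARID1A, so its call is not separate from the filter. With lists cut to equal length, NKX2-1 stood at 1.11, FOXA1 at 1.04 and GATA6 at 1.03 without passing limma (adjusted p = 0.111, 0.0822 and 0.148), and SOX2 was not tested, while the other 5 kept their calls. All 9 were therefore called higher, and so were 80.3% of all genes, while 0.564% were called lower, so the count is not particular to the members.

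The anti-ARID1A lists covered more of the genome throughout, and the median difference was 2.16 over the members and 1.40 over all genes. With each library centred on its median, HNF4A stayed higher, by 1.49 (limma, adjusted p = 6.36e-05), and was the 1 member called higher. FOXA3 turned and was called lower, at -0.66 (limma, adjusted p = 0.000149). In that fit 1417 of the 18790 genes tested were called higher and 4701 lower, so calls in either direction were not particular to the members. GATA6, SOX2 and CEBPA turned without a call, at -0.21, -0.13 and -0.30, and NKX2-1, FOXA1, FOXA2 and SOX9 kept their sign at 0.55 to 1.07 without passing. Every anti-ARID1A library was above every anti-YTHDF1 library in 7 of 9 members, all but GATA6 and SOX2, as in 26.3% of all genes. An exact permutation test of the antibody labels (924 arrangements) called 8 of 9, with SOX2 at an adjusted p of 0.0784, and 71.5% of all genes. The limma call of SOX2 was also lost with no filter on genes (adjusted p = 0.0595) and, at adjusted p of 0.0501 to 0.0877, without replicate 1 or 2 of the anti-YTHDF1 libraries of YTHDF1-KO or siARID1A cells, without replicate 1 of WT with either antibody, and without replicate 1 of the YTHDF1-KO or replicate 2 of the siARID1A anti-ARID1A libraries. By presence of a peak alone, no member and none of the 19970 windows differed between antibodies after adjustment of Fisher's exact test. Unadjusted, 470 windows had a p under 0.05 by that test, and limma called 15202 genes by length. With 6 libraries against 6 the smallest p of Fisher's exact test is 0.00216. A window could thus pass adjustment over 19970 windows only together with many others. The lack of calls by presence therefore does not show that the antibodies were alike.

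**Figure D4:**
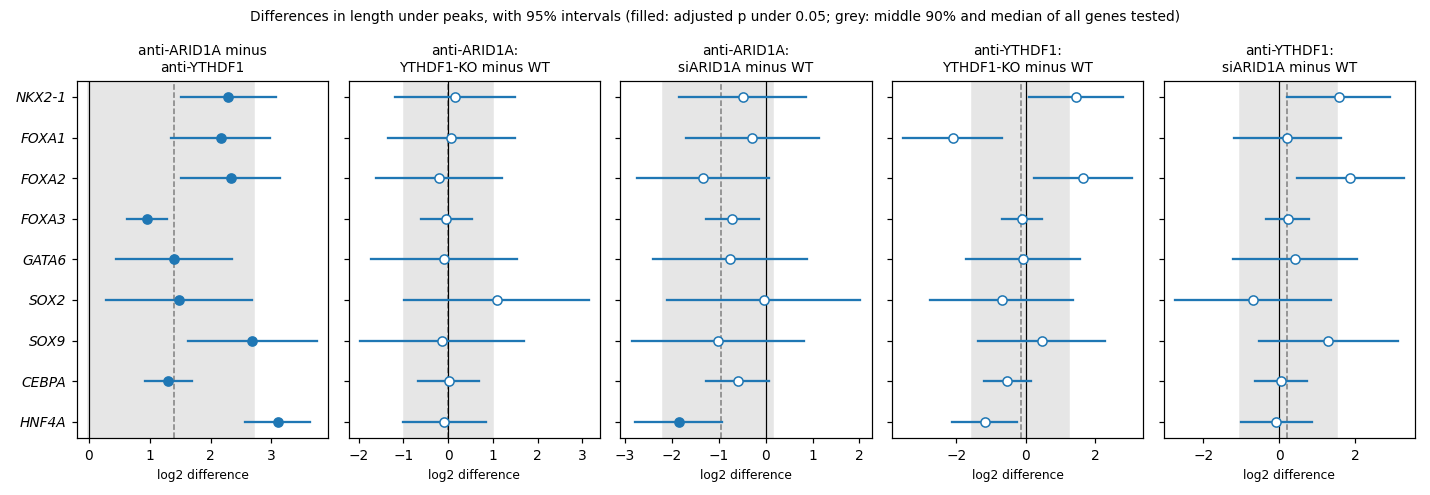
Log2 difference in covered length for each gene (points, with 95% intervals), 1 panel per comparison, filled where the limma adjusted p was under 0.05; the grey band is the middle 90% of all genes tested and the dashed line their median. All 9 points are filled for anti-ARID1A minus anti-YTHDF1, of which FOXA3, GATA6, SOX2 and CEBPA turned sign after centring, and HNF4A alone is filled among the 4 condition panels, for siARID1A minus WT with anti-ARID1A.

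After ARID1A knockdown, the anti-ARID1A coverage of HNF4A fell by 1.85 ± 0.43 on the log2 scale relative to WT (SE, n = 2 each; 95% interval -2.79 to -0.92; limma, adjusted p = 0.0336). HNF4A was the 1 member called, and 6.99% of all genes were called lower and 0.0213% higher. The call was lost without either anti-ARID1A replicate of YTHDF1-KO (adjusted p = 0.0773 and 0.0774), siARID1A (0.264 and 0.0618) or WT cells (0.155 and 0.33), with differences from -2.14 to -1.56. The estimates of the other 8 were negative before centring, without passing limma: FOXA2 -1.33 (adjusted p = 0.157), SOX9 -1.02 (0.359), GATA6 -0.77 (0.434), FOXA3 -0.71 (0.0884), CEBPA -0.60 (0.178), NKX2-1 -0.49 (0.544), FOXA1 -0.28 (0.753) and SOX2 -0.04 (0.997). The median over all genes was -0.95. With each library centred on its median, HNF4A was at -0.66 (limma, adjusted p = 0.437), FOXA2 at -0.14 and the other 7 between 0.17 and 1.15, none past the threshold. Both siARID1A libraries lay below both WT libraries at NKX2-1, FOXA2, FOXA3, SOX9, CEBPA and HNF4A, 6 of 9, as at 71.8% of all genes, and above them at 0 of 9, as at 1.22%. No member window was held in both siARID1A libraries and no WT library, or the reverse, as were 0.411% and 1.76% of all windows.

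The siARID1A anti-ARID1A lists also differed from the WT lists as a whole. Their peaks covered 99.0 and 128 Mb, against 228 and 266 Mb in WT cells, and the mitochondrial genome took 49.5% and 44.9% of the listed signal, against 19.3% and 18.1% in WT cells. The part of these differences in the HNF4A result was not tested. A peak in all 4 of these lists was found at 8 members. The strongest anti-ARID1A peak ranked lower in both siARID1A libraries than in both WT libraries at 3 of these 8. The share was 39.6% over all genes with a peak in all 4 lists. HNF4A had 79.1 and 84.8 in siARID1A cells, against 97.9 and 96.8 in WT cells, CEBPA 96.7 and 99.1 against 99.3 and 99.5, and FOXA3 99.26 and 99.27 against 99.53 and 99.33. The strongest peak ranked higher at 3 of the 8 members, against 17.4% of such genes. SOX9 had 93.4 and 93.9 in siARID1A cells, against 87.4 and 83.6 in WT cells, FOXA1 79.3 and 80.3 against 73.0 and 59.8, and FOXA2 96.1 and 97.6 against 95.8 and 95.2. The strongest peak of a window was not always the same peak. At FOXA1 its highest signal lay 6191 and 9220 bp from the lower-coordinate end in siARID1A cells, against 4802 and -6378 bp in WT cells. At CEBPA the places were -6295 and -8726 bp, against -25401 and -25662 bp. At FOXA3 they were 22234 and 22441 bp, against 22234 and -1082 bp. At NKX2-1 and GATA6 the ranks of the conditions overlapped, and SOX2 had a peak in 1 library of each. With 2 libraries against 2 the smallest p of an exact permutation test is 0.33, so these ranks carry no test. On chromosome 17 beyond 40 Mb, where SOX9 lies, the share of covered length was 6.83% and 6.63% in siARID1A cells and 4.59% and 4.59% in WT cells with anti-ARID1A, and its part in the SOX9 values was not tested.

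With anti-ARID1A, YTHDF1-KO and WT cells did not differ beyond the spread at any member. The estimates ran from -0.21 at FOXA2 to 1.08 at SOX2, and all 9 limma adjusted p-values were 1. The 95% interval was -1.02 to 0.85 for HNF4A, -0.61 to 0.53 for FOXA3 and -0.98 to 3.14 for SOX2, so changes of a size within these bounds could not be seen. No gene of 18790 passed limma in this comparison (0% in either direction), and 617 had an unadjusted p under 0.05. Both YTHDF1-KO libraries lay below both WT libraries at FOXA2 alone among the members, as at 20.5% of all genes, and above both at none, as at 15.3%. No member window was held in both YTHDF1-KO libraries and no WT library, or the reverse, as were 0.906% and 0.491% of all windows.

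With anti-YTHDF1, FOXA1 had no peak in either YTHDF1-KO library and 1 and 2 peaks in the WT libraries. It was the single member held by both libraries of WT and neither of YTHDF1-KO, as were 1.95% of all windows, while 1.77% showed the opposite. The FOXA1 difference did not pass limma (adjusted p = 0.216). HNF4A stood at -1.18 (limma, adjusted p = 0.273), FOXA2 at 1.66 (0.309) and NKX2-1 at 1.46 (0.355). No member was called, and 0.00532% of all genes were called higher and 0.0319% lower. FOXA1, CEBPA and HNF4A lay lower in both YTHDF1-KO libraries than in both WT libraries, as did 16.6% of all genes, and NKX2-1 and FOXA2 lay higher, as did 7.64%. With anti-YTHDF1, 7 and 6 of the 9 windows were held in YTHDF1-KO libraries, where 74.6% and 71.9% of all windows were held, and 6 and 8 in WT libraries, where 75.4% and 71.3% were.

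The anti-YTHDF1 values of WT rest on libraries of unlike size, with 57764 and 40562 peaks. Without replicate 1 of WT, 1 WT library is left, which is assumed to vary like the other groups and is listed at 0 for FOXA2. In that fit FOXA2 passed limma (adjusted p = 0.0385), as did 485 of all genes, against 7 with all libraries, and 3 members were held in 1 of the conditions alone, FOXA1 and SOX2 in WT and FOXA2 in YTHDF1-KO, as were 10.4% of all windows. Without replicate 2, 1404 genes passed and no member did, and the windows held in 1 condition alone were FOXA1 in WT and NKX2-1 in YTHDF1-KO, as were 8.64% of all windows. The FOXA1 pattern was seen with either WT library left out, and it was not seen with windows of 50 kb to either side or with the higher-ranked 50% of each list.

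In siARID1A cells, anti-YTHDF1 coverage did not differ from WT beyond the spread at any member by limma. FOXA2 stood at 1.88 (95% interval 0.46 to 3.29; limma, adjusted p = 0.364) and NKX2-1 at 1.57 (0.22 to 2.92; adjusted p = 0.436). Both genes were higher in both siARID1A libraries than in both WT libraries, as were 17.8% of all genes. No gene was called in either direction (0%), and 1835 had an unadjusted p under 0.05. Without replicate 1 of WT, where the WT library left is listed at 0 for FOXA2 and is assumed to vary like the other groups, FOXA2 passed limma (adjusted p = 0.0114), as did 1918 of all genes. No member had its window held in both libraries of siARID1A and none of WT, or the reverse, against 2.38% of all windows for siARID1A alone and 1.05% for WT alone. Below both WT libraries lay 0 of 9 members, as did 6.4% of all genes.

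Before centring, 7 of 9 members, all but SOX2 and HNF4A, had negative estimates in siARID1A minus WT with anti-ARID1A and positive ones with anti-YTHDF1. Of all 18790 genes tested, 17117 had negative estimates with anti-ARID1A and 12138 had positive ones with anti-YTHDF1. The genes with both signs were not counted. With each library centred on its median, the anti-ARID1A estimates of NKX2-1, FOXA1, FOXA3, GATA6, SOX9 and CEBPA were positive, at 0.17 to 0.91. FOXA2 alone kept both signs, at -0.14 with anti-ARID1A and 1.63 with anti-YTHDF1. The difference between the antibodies was -3.21 for FOXA2 (95% interval -5.20 to -1.21; limma, adjusted p = 0.0805), -2.32 for SOX9 (limma, adjusted p = 0.201), -2.06 for NKX2-1 (limma, adjusted p = 0.147) and -1.78 for HNF4A (limma, adjusted p = 0.100). When centred it was -1.77 for FOXA2, -0.88 for SOX9, -0.62 for NKX2-1 and -0.34 for HNF4A. None passed the threshold, and the median over all genes was -1.17. For YTHDF1-KO minus WT the lowest adjusted p among the members was 0.989. Both conditions were set against the same WT libraries within each antibody.

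A wider list of 25 further lung and endoderm regulators was counted in the same fits. With anti-ARID1A against anti-YTHDF1, 23 of 25 were called higher and 0 lower, with a median of 1.9, against 80.3% of all genes called higher. When centred, 4 were called higher and 1 lower, against 1417 and 4701 of the 18790 genes tested. In siARID1A against WT with anti-ARID1A, 2 of 25 were called lower, against 6.99% of all genes: FOXP1, a forkhead repressor of the airway epithelium, at -1.91 (limma, adjusted p = 0.0331), and HOPX, a homeodomain protein of alveolar type I cells, which was listed at 0 in both siARID1A libraries (limma, adjusted p = 0.0314). With each library centred on its median neither was called (limma, adjusted p = 0.235 for FOXP1 and 0.302 for HOPX). Both calls were also lost without any 1 of the 6 anti-ARID1A libraries (limma, adjusted p = 0.0626 to 0.33), and that of FOXP1 without either anti-YTHDF1 library of siARID1A (0.0501 and 0.0503). The HOPX window was held by both WT and neither siARID1A library with anti-ARID1A, as at 1.76% of all windows. With anti-YTHDF1, HOPX and CDX2, 2 of the 25, were held by both siARID1A and neither WT library, as were 2.38% of all windows. In the 3 other comparisons of conditions 0 of 25 were called. When centred, 1 of 25 was called lower in YTHDF1-KO with anti-YTHDF1, against 212 of the 18790 genes tested.

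Across the 12 libraries the members followed one another to different degrees. Covered lengths on the log2 scale correlated most between CEBPA and HNF4A (Pearson r = 0.972) and between FOXA3 and CEBPA (0.969), and least between FOXA2 and SOX2 (0.362). The protein-coding genes outside these windows closest to the members' mean were GADD45B (r = 0.994), EDEM1 (0.991) and PNPLA6 (0.989). These libraries share antibodies and list sizes, so the correlations describe the lists and carry no test.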

How the data were processed

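CUT&Tag peak lists of 12 A549 samples were analysed. The submitters' processing notes name SEACR 1.3, deepTools 3.5.2, bedtools 2.30.0, SAMtools 1.9, Bowtie2 2.4.2 and fastp 0.23.2, with the builds hg38 and GRCh38. Not given in the sources used here are the settings of peak calling, the role of IgG and the scaling. Each deposited list, made per sample, gives the total signal and highest signal of each peak, on a scale that may differ between libraries, so signal was ranked only within a list. Sequencing depth is unknown.

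Peaks on chromosomes 1 to 22 and X were set against RefSeq gene spans (GRCh38.p14), 1-based, with Python 3.11.15, pandas 2.3.3 and scipy 1.17.1. Covered length was tested with limma 3.58.1 in R 4.3.3 (6 groups, trend), after a test on simulated data. Groups and replicate numbers came from the titles. Same-numbered samples did not deviate together (correlations of -0.0325 to 0.0307 over 15 pairs of groups), so no block was used. The 9 members are all named, neighbours once, and of the wider list those passing a comparison of conditions. Promoters with a count differing by at least 3 libraries are printed. Members and lists were chosen with earlier results of these data known. The test at gene starts was added after the data were seen. Alternatives covered window size, list length, the higher-ranked 50% of each list, place of highest signal, pseudocount, centring, filter, trend, replicate block and each library left out.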

Additional observations from a re-analysis of the deposited data

How the results depend on the processing

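Of the antibody comparison, 9 members called became 5 with lists of equal length, where SOX2 was not tested, and 2 with each library centred on its median, where FOXA3 reversed to -0.66, GATA6 to -0.21, SOX2 to -0.13 and CEBPA to -0.30; no filter gave 8 (SOX2 lost), and leaving out single libraries gave 8 to 9. For siARID1A against WT with anti-ARID1A, the 1 member called became 2 with 50 kb to either side (FOXA3 added) and 0 with the higher-ranked 50% of each list, a pseudocount of 100 bases, centring or no trend, and 0 to 3 without single libraries (3 without either anti-YTHDF1 replicate of WT, FOXA2 and FOXA3 added). With anti-YTHDF1, leaving out single libraries gave 0 to 1 calls for YTHDF1-KO and for siARID1A. The count of members whose window was held in both libraries of a condition and none of WT, or the reverse, moved for YTHDF1-KO with anti-YTHDF1: it was 1, and became 0 with 50 kb or the higher-ranked 50%, and ran from 1 to 3 without single libraries. For siARID1A with anti-YTHDF1 the count became 1 with the higher-ranked 50% and ran from 0 to 2. For YTHDF1-KO with anti-ARID1A it ran from 0 to 1. The cause of these moves was not tested.

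Over all genes, the siARID1A calls with anti-ARID1A numbered 1318, against 4181 with 50 kb, 578 with 1 kb, 190 with a pseudocount of 100 bases, 292 with no trend, 808 with no filter, 862 when centred (802 higher, 60 lower, against 4 and 1314), and 0 to 6015 without single libraries. The antibody calls numbered 15202, against 6118 when centred (1417 higher, 4701 lower, against 15096 and 106). YTHDF1-KO calls with anti-YTHDF1 numbered 7, against 291 when centred, 73 with no filter, 97 with a pseudocount of 100 bases and 0 to 1404 without single libraries, and siARID1A calls with anti-YTHDF1 numbered 0, against 0 to 1918 without single libraries. With the replicate block, the samples sharing only a number, members called stayed at 9 for the antibodies, 1 for siARID1A with anti-ARID1A and 0 in the other 3 comparisons, with 560 of all genes for siARID1A with anti-ARID1A, and the exact permutation within the replicate block called 8 of 9 members.

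Peak lists show what passed a caller, so a window without a peak was not called at an unknown depth, which is not absence of binding.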
